A study of Mus musculus with 17 samples.

Results

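Tcf21, Twist1, Twist2, Tbx2, Tbx4, Tbx5, Foxf1, Prrx1, Hoxa5 and Meox2 are transcription factors of the lung mesenchyme, and their mRNA was followed here in lung fibroblast cultures from 17 mice. They were chosen by gene symbol, and each had 1 row, so that 10 of the 55421 genes of the deposited count table are described. Every mouse was Ephb4f/f; Col1a2-CreERT2. Mice that received corn oil at 4 weeks of age served as Ephb4 controls, and mice that received 4-hydroxytamoxifen at that age are the Ephb4 conditional knockouts (CKO). At 6 weeks of age bleomycin, which injures the lung and leads to fibrosis, or PBS was given, and 14 days later lung cells were put in culture and passaged 1 time before total RNA-Seq. There were 4 control PBS, 4 control bleomycin, 5 CKO PBS and 4 CKO bleomycin mice, with 1 library a mouse. In that order 3, 2, 2 and 2 of them were labelled female and 1, 2, 3 and 2 male. The mouse numbers used below only name mice within a group. The controls carry the floxed allele and the Cre transgene too, and Cre is driven by Col1a2 sequences, so that the deletion is restricted to cells that use this collagen gene.

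The mesenchyme of the lung gives rise to its fibroblasts, smooth muscle and pericytes. Each of these cell types is specified by combinations of transcription factors, many of which stay on in adult fibroblasts. Tcf21, Twist1 and Twist2 are basic helix-loop-helix proteins, which bind E-boxes as dimers: Tcf21 is a mesenchymal regulator of lung and kidney development and marks lipid-rich lung fibroblasts, and the Twist proteins are known from mesoderm development and epithelial-to-mesenchymal transition. Tbx2, Tbx4 and Tbx5 are T-box factors of the lung bud mesenchyme, where Tbx4 and Tbx5 act upstream of the growth factor Fgf10. Foxf1 is a forkhead factor and a target of Hedgehog signaling in lung mesenchyme and endothelium. Prrx1, Hoxa5 and Meox2 are homeodomain proteins: Prrx1 is a broad marker of mesenchyme, Hoxa5 is needed for the development of the airways and the lung, and Meox2 is found in mesenchyme and in vessels.

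The genes lie on 7 chromosomes of GRCm38, and Tbx2 and Tbx4 are neighbors on chromosome 11 with 44.5 kb between them. RefSeq promoter sequences of GRCm38.p6 were at hand for 7 of the 10 genes, all but Tbx2, Tbx5 and Foxf1. The 250 bases before the start site are shown for both Twist genes, whose levels set them apart below, and for Hoxa5 and Meox2. They are written 5′ to 3′ on the strand of the gene, with E-boxes (CANNTG) in capitals. The windows are chr12:33957421-33957670 for Twist1, chr1:91801211-91801460 for Twist2 and chr12:37108290-37108539 for Meox2, all on the plus strand. For Hoxa5 the window is chr6:52204588-52204837 on the minus strand.
Twist1 promoter: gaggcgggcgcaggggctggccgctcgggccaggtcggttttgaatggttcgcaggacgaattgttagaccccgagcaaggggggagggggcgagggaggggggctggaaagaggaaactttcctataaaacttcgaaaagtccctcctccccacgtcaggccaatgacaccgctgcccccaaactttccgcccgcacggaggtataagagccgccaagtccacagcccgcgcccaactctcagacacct
Twist2 promoter: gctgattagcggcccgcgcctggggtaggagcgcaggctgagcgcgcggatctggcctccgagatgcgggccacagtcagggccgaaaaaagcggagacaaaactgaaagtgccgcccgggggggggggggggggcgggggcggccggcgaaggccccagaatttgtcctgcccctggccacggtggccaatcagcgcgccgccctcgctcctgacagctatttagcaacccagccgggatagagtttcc
Hoxa5 promoter: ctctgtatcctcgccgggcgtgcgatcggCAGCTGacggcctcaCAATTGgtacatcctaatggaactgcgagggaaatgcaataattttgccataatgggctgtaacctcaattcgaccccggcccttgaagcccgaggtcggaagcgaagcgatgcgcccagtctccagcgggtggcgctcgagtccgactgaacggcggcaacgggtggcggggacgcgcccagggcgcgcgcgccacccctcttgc
Meox2 promoter: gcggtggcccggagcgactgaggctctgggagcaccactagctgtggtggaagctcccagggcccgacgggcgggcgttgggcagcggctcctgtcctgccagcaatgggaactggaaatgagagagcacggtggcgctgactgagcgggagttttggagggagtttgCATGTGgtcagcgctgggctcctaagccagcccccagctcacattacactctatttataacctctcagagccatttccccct
The Hoxa5 window held 2 E-boxes, the Meox2 window held 1 and both Twist windows held none. An E-box was found in 66.2% of the 32851 promoters of the table, so that its presence is usual. Neither the T-box sequence AGGTGTGA, found in 1.12% of all promoters, nor the forkhead sequence TGTTTAC, found in 3.17%, was in any of the 7 windows. Both strands were searched, CANNTG reads the same on both, and no match overlapped a match of another motif. The Tbx4 window held 3 E-boxes, and the start site behind it lies 10343 bases inside the gene as GENCODE draws it. These matches are letters in a window and no evidence of binding.

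Libraries held 66540022 to 120554468 counts. Levels are given as CPM, counts scaled to the size of the library with TMM factors. The labelled cell type was checked first. All 16 fibroblast markers were found, but their summed level ran from 34.2 to 8884 CPM in control PBS, from 7645 to 14520 in control bleomycin, from 87.6 to 2357 in CKO PBS and from 57.1 to 2535 in CKO bleomycin cultures. The 19 macrophage markers were all above 0 in every library. Their sums were 10670 to 47070 CPM in control PBS and 1349 to 22020 CPM in control bleomycin cultures. In CKO cultures they were 25260 to 45570 CPM after PBS and 24760 to 44850 CPM after bleomycin. Only in control bleomycin mouse 1 was the fibroblast sum the higher (13520 beside 1349 CPM). The marker lists differ in length, and such sums do not give shares of cells. Sex-linked genes went against the labelled sex in 3 libraries, those of control bleomycin mouse 2 and of CKO bleomycin mice 1 and 2. These are libraries of both groups of the genotype comparison after bleomycin, and a wrong sex label and a wrong group label cannot be told apart in them, so that groups are given as labelled throughout. Ephb4 itself was measured at 2.33 to 33.2 CPM in control PBS, 13.1 to 64.7 in control bleomycin, 4.01 to 23.6 in CKO PBS and 4.94 to 14.0 in CKO bleomycin cultures. Its CKO minus control log2 difference was -0.72 ± 0.72 (SE; edgeR adjusted p = 1.00) after PBS and -2.0 ± 0.79 (adjusted p = 0.254) after bleomycin. The level of the targeted gene therefore did not separate the genotypes past the threshold.

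To see how the mesenchymal factors responded to bleomycin, control bleomycin cultures were compared with control PBS cultures. The fitted level of all 10 factors was higher in the bleomycin cultures (log2 fold changes from 0.85 to 4.90, median 1.76) beside a median of -0.06 over all genes tested at either minimum. Twist1 and Twist2 stood out, since they were the only factors whose bleomycin and PBS values did not overlap, 2 of 10 factors beside 5.34% of all genes that were higher without overlap. Without the 3 libraries whose sex-linked genes went against the label it was again these 2 genes, beside 7.54%.

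Twist1 was measured at 0.134, 0, 0.463 and 0 CPM in the 4 control PBS cultures and at 6.84, 3.04, 2.99 and 4.91 CPM in the 4 control bleomycin cultures. Twist2 was measured at 0.214, 0.0901, 0.432 and 0.0301 CPM after PBS and at 6.41, 2.54, 3.26 and 3.03 CPM after bleomycin. For both genes every bleomycin culture was thus above every PBS culture. The log2 fold change was 4.90 ± 1.84 (SE) for Twist1 and 4.32 ± 1.54 for Twist2, each with an adjusted p of 0.345 in edgeR's quasi-likelihood test. These values belong to cultures with very different levels of fibroblast marker RNA. In such bulk libraries fewer cells of a type and less RNA per cell cannot be told apart.

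The other 8 factors had 1 control PBS culture at the level of the bleomycin cultures. Prrx1 was measured at 3.6, 0.586, 59.1 and 0.100 CPM after PBS and at 74.4, 49.8, 59.0 and 77.5 CPM after bleomycin. Tbx4 was measured at 1.94, 0.158, 46.4 and 0.271 CPM after PBS and at 27.6, 44.1, 7.22 and 9.12 CPM after bleomycin. In both genes control PBS mouse 3 was as high as a bleomycin mouse, while the other 3 PBS mice were far below. This mouse had a fibroblast score (the mean log2 CPM of the 16 markers) of 7.0, beside -0.26 to 2.92 in the other control PBS mice and 7.18 to 8.00 in the control bleomycin mice. Its Twist1 and Twist2 levels, 0.463 and 0.432 CPM, were nevertheless lower than in any control bleomycin mouse.

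**Figure D1:**
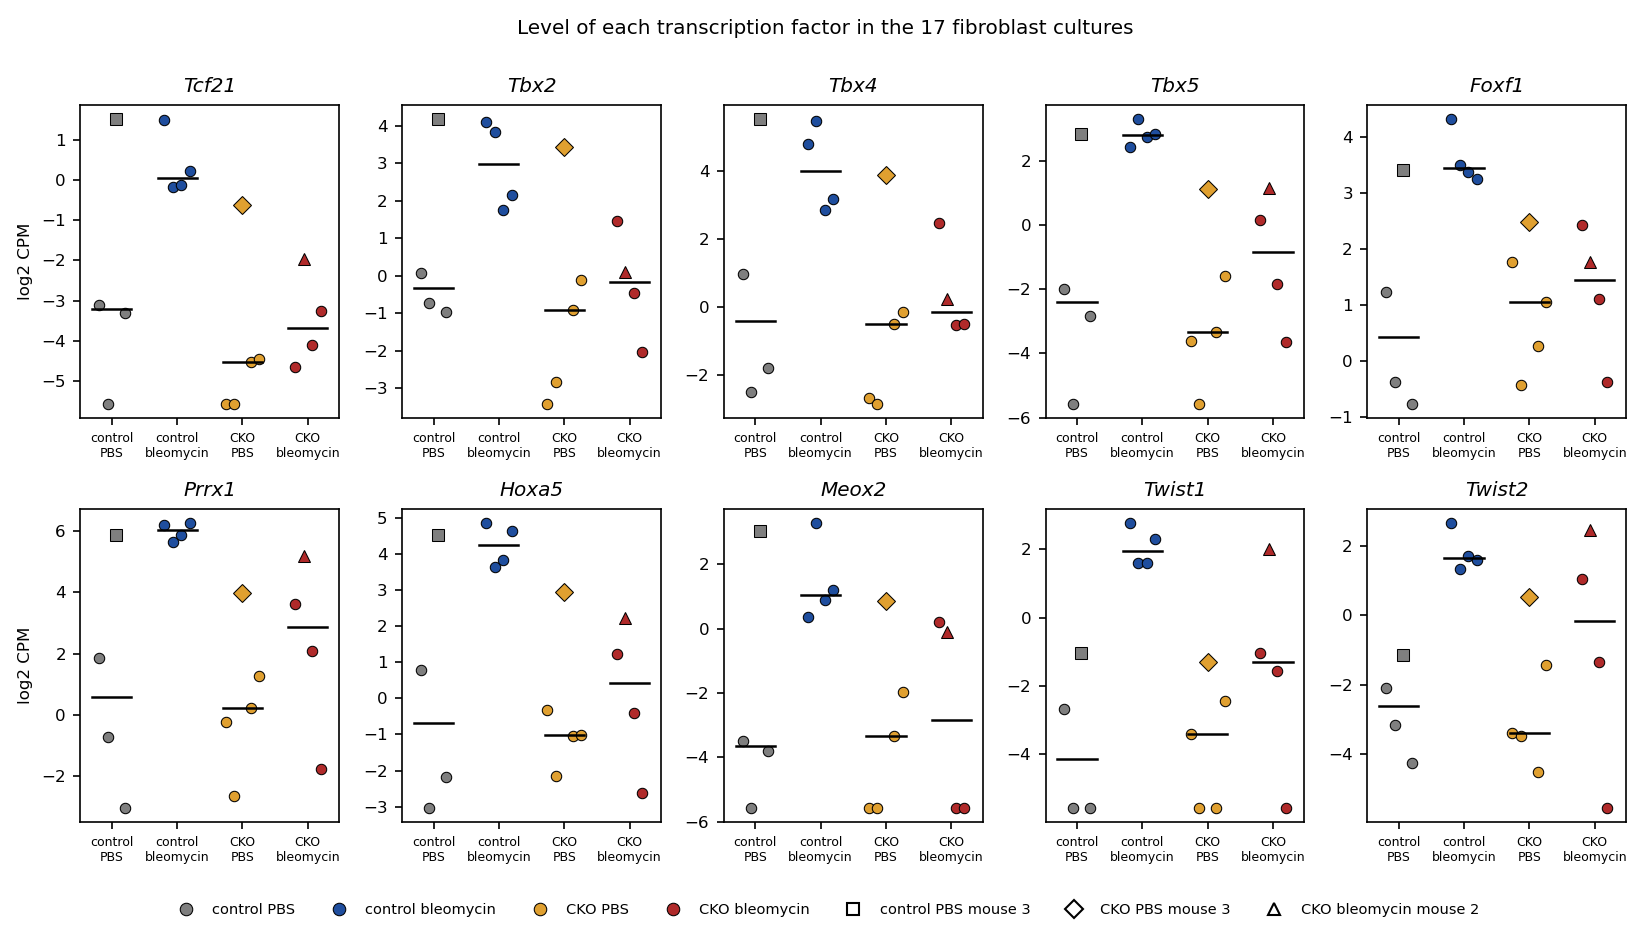
Level of each factor in each library as log2 CPM (prior count 2), 1 panel a gene with its own vertical axis, grouped by genotype and treatment; each symbol is a mouse, horizontal lines are group medians, and the lowest position in a panel may hold libraries with 0 counts. Control PBS mouse 3 (square) lies at the level of the control bleomycin mice in 8 panels and below them for Twist1 and Twist2, and CKO bleomycin mouse 2 (triangle) lies among them for Twist1 and Twist2.

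The T-box factors Tbx2 and Tbx5 followed the same course. Tbx2 was measured at 18.2 CPM in control PBS mouse 3 and at 0.492 to 1.04 CPM in the other 3 PBS mice, against 3.36 to 17.1 CPM after bleomycin. Tbx5 was measured at 7.13 CPM in that mouse and at 0 to 0.228 CPM in the others, against 5.39 to 9.87 CPM after bleomycin. Within the control bleomycin group Tbx5 varied by less than Tbx2 and Tbx4, for which mice 1 and 2 were above mice 3 and 4 (17.1 and 14.2 against 3.36 and 4.41 CPM for Tbx2).

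Tcf21 was the least abundant factor of the group per kilobase of exon in control bleomycin cultures, with 0.859 to 2.77 CPM, and reached 2.84 CPM in control PBS mouse 3. Meox2 was measured at 1.27 to 2.30 CPM in 3 control bleomycin cultures and at 9.79 CPM in mouse 2, beside 8.21 CPM in control PBS mouse 3. For Foxf1 the bleomycin cultures held 9.55 to 20.1 CPM and the PBS cultures 0.572 to 2.34 CPM with mouse 3 at 10.7 CPM. Hoxa5 was measured at 12.6 to 29.2 CPM after bleomycin and at 0.101 to 1.72 CPM in PBS mice other than mouse 3, which had 23.3 CPM. So 1 library decided whether the groups overlapped in 8 of the 10 genes. Without control PBS mouse 3 the groups did not overlap for any of the 10 factors, beside 14.0% of all genes, and the log2 fold changes were 3.43 to 6.70 with edgeR adjusted p-values from 0.0682 to 0.164.

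edgeR called 0 of the 10 factors in this comparison, and 0% of all genes at either minimum level were called at an adjusted p under 0.05. Adjusted p-values of the factors ran from 0.345 to 0.869. At an unadjusted p under 0.05, 2 of 10 were higher (Twist1 and Twist2), and 5.89% of all genes were higher at that level. Foxf1 had an unadjusted p of 0.0562 in the test at the stricter minimum and of 0.0496 at the lower one. DESeq2 called 0 factors without a batch term, beside 1.48% of all genes, and called Twist2 (adjusted p = 0.0435) when the 2 runs of columns in the table were a covariate, beside 2.08% of all genes. limma voom called 0 factors and 0% of all genes without sample weights, and 0 factors beside 0.391% of all genes with them. When the fibroblast score entered the edgeR fit as a covariate, 9 of the 10 log2 fold changes turned negative (range -1.73 to 0.48) and the adjusted p-values were all near 1.

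The question of the knockout was asked in bleomycin mice, by comparing CKO with control cultures, which are the same 4 control bleomycin libraries as above. All 10 factors had a lower fitted level in the CKO group, with a median log2 fold change of -2.96 (range -3.92 to -0.94) beside 0.01 over all genes of the stricter minimum. In 8 of 10 factors every CKO culture was below every control culture, beside 11.3% of all genes that were lower without overlap. The 2 exceptions were Twist1 and Twist2.

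Hoxa5 was measured at 2.32, 4.65, 0.737 and 0.141 CPM in the CKO bleomycin cultures against 29.2, 12.6, 14.4 and 25 CPM in the control bleomycin cultures, a log2 fold change of -3.37 ± 1.57 (SE; edgeR adjusted p = 0.246). Foxf1 was measured at 5.37, 3.42, 2.15 and 0.753 CPM against 20.1, 11.4, 10.4 and 9.55 CPM, a log2 fold change of -2.14 ± 0.90 (adjusted p = 0.227). Tcf21 was measured at 0.0183, 0.234, 0.0369 and 0.0824 CPM against 2.77, 0.859, 0.895 and 1.14 CPM, a log2 fold change of -3.92 ± 1.78 (adjusted p = 0.269). These 3 genes had an unadjusted p under 0.05, beside 8.59% of all genes that were lower at that level, and in each the highest CKO mouse was below the lowest control mouse.

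The neighboring T-box genes were separated by a narrower margin. Tbx4 was measured at 5.58, 1.15, 0.676 and 0.683 CPM in the CKO cultures, against a lowest control value of 7.22 CPM. Tbx2 was measured at 2.73, 1.05, 0.713 and 0.224 CPM, against a lowest control value of 3.36 CPM. In both genes CKO mouse 1 was the highest of its group. For Tbx5 CKO mouse 2 was the highest at 2.20 CPM, against 5.39 CPM or more in controls. The log2 fold changes were -3.45 ± 1.79 for Tbx4, -3.05 ± 1.57 for Tbx2 and -3.01 ± 1.74 for Tbx5.

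Of the homeodomain genes, Prrx1 was measured at 12.3, 36.6, 4.24 and 0.271 CPM in the CKO cultures, and its lowest control value was 49.8 CPM. Meox2 was measured at 1.13, 0.910, 0 and 0 CPM, and its lowest control value was 1.27 CPM. Their log2 fold changes were -2.29 ± 1.64 and -2.90 ± 2.32.

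The Twist genes overlapped because of a single CKO culture. Twist1 was measured at 0.467, 4.02, 0.320 and 0 CPM and Twist2 at 2.07, 5.52, 0.369 and 0 CPM in CKO bleomycin mice 1 to 4. Mouse 2 was therefore within the control range for both genes (2.99 to 6.84 and 2.54 to 6.41 CPM), while the other 3 were below it. The log2 fold change was -1.90 ± 1.60 for Twist1 and -0.94 ± 1.35 for Twist2, with edgeR adjusted p-values of 0.504 and 0.703. Without CKO mouse 2 all 10 factors had groups that did not overlap, beside 16.9% of all genes, and the log2 fold changes of Twist1 and Twist2 were -4.09 and -2.22. Leaving out the 3 libraries whose sex-linked genes went against the label, CKO mouse 2 among them, also left 10 factors without overlap, beside 22.8% of all genes.

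**Figure D2:**
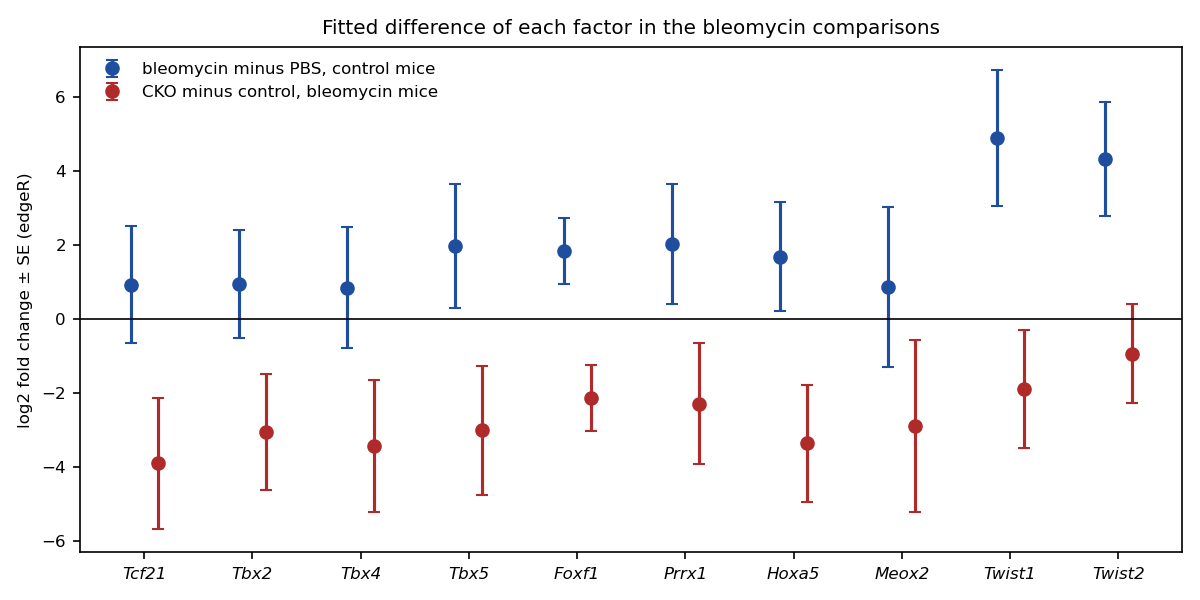
Fitted log2 fold change of each factor from edgeR, with bars of 1 SE, for bleomycin minus PBS in control mice (blue) and for CKO minus control in bleomycin mice (red). Blue points lie above 0 and red points below 0 for all 10 factors, Twist1 and Twist2 have the highest blue points, and both comparisons use the same control bleomycin libraries.

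edgeR called 0 of 10 factors between the genotypes after bleomycin, as it called 0% of all genes, with adjusted p-values of the factors from 0.227 to 0.703. At an unadjusted p under 0.05, 3 of 10 were lower (Foxf1, Hoxa5 and Tcf21). DESeq2 called 0 factors, beside 2.58% of all genes without the column runs and 2.94% with them, and limma voom without sample weights called 0 factors and 0% of all genes. limma voom with sample quality weights called 6 factors (Foxf1, Hoxa5, Prrx1, Tbx5, Tcf21 and Twist1; lowest adjusted p = 0.00158), beside 40.0% of all genes. With the fibroblast score as a covariate 9 of the 10 log2 fold changes turned positive (range -0.52 to 1.70), and with the macrophage score as a covariate all 10 stayed negative (range -2.85 to -0.24).

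The fibroblast markers moved beside the factors in both comparisons. All 16 were higher after bleomycin in control mice (median log2 fold change 2.59) and all 16 were lower in CKO than in control bleomycin mice (median -2.77). Fibroblast scores were 3.79, 6.00, 3.40 and 0.02 in CKO bleomycin mice 1 to 4, against 7.18 to 8.00 in the controls. The smooth muscle and pericyte markers gave medians of 3.16 and -2.41 over 7 of 8 genes tested. Macrophage markers went the other way, with 16 of 19 lower after bleomycin in control mice (median -0.84) and 19 of 19 higher in CKO bleomycin cultures (median 1.17). Of the 9 epithelial markers, 9 were lower in the first comparison (median -0.80) and 6 higher in the second (median 0.53), and the 9 endothelial markers gave medians of -0.16 and -0.90. None of these marker genes was called, and no marker list had all its genes at 0 in any library. The part of these cells in the differences of the factors was not tested. The covariate fits cannot decide it, since the markers behind both scores moved in the same comparisons.

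**Figure D3:**
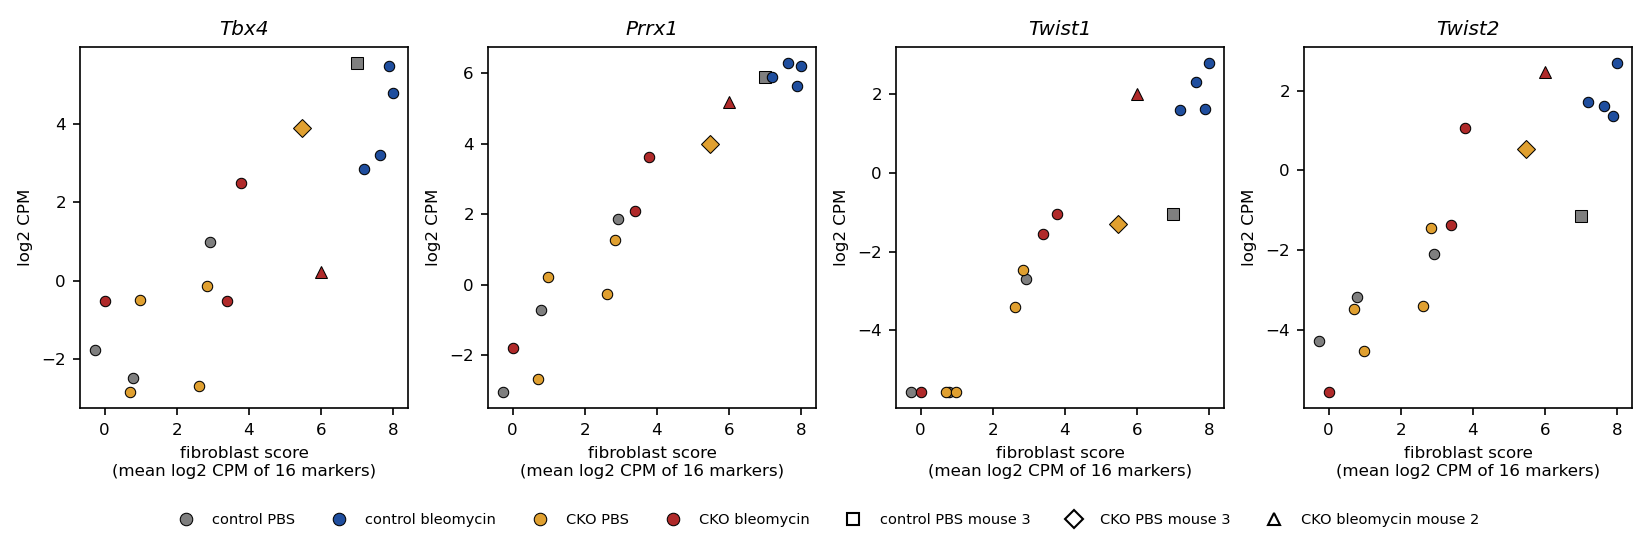
log2 CPM of Tbx4, Prrx1, Twist1 and Twist2 (vertical axes) against the fibroblast score of the same library (horizontal axis, mean log2 CPM of 16 markers), with 1 symbol a mouse for all 17 libraries. Prrx1 is low where the score is low and high where it is high, control PBS mouse 3 (square, score 7.0) lies low for Twist1 and Twist2 only, and CKO bleomycin mouse 2 (triangle, score 6.00) lies low for Tbx4 only.

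The cultures with the most Prrx1, with fibroblast scores from 3.79 to 8.00, were then set side by side. Each factor was expressed as a percentage of Prrx1 in the 8 cultures with more than 10 CPM of Prrx1, a description that was chosen after the values had been seen. Twist1 was at 0.784% of Prrx1 in control PBS mouse 3 and at 2.45% in CKO PBS mouse 3, against 5.08 to 9.20% in the 4 control bleomycin mice, 3.81% in CKO bleomycin mouse 1 and 11% in CKO bleomycin mouse 2. All 6 bleomycin cultures were above both PBS cultures for this ratio, with a narrow gap between CKO bleomycin mouse 1 and CKO PBS mouse 3. Only 2 PBS cultures entered, and the ratio was not computed for all genes, so no share stands beside it. Twist2 was at 0.732% of Prrx1 in control PBS mouse 3, at 9.00% in CKO PBS mouse 3, and at 3.91 to 16.9% in the bleomycin cultures, so that only the control PBS culture was apart.

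Tbx4, Tbx2 and Tcf21 had another order. Tbx4 was at 78.5% and 94.1% of Prrx1 in the PBS cultures of control mouse 3 and CKO mouse 3, and at 11.8 to 88.5% in the control bleomycin cultures. It was at 45.5% in CKO bleomycin mouse 1 and at 3.16% in CKO bleomycin mouse 2. Tbx2 was at 2.87% of Prrx1 in that last mouse and at 5.69 to 68.8% in the other 7 cultures. The mouse with the most Prrx1 and Twist RNA of the CKO bleomycin group was the lowest of these 8 relative to Prrx1 for Tbx2, Tbx4, Foxf1, Tbx5 and Hoxa5. Its high Prrx1 is the divisor of these ratios. In CPM this mouse was the highest of its group for Hoxa5 (4.65) and Tbx5 (2.20) and below mouse 1 for Tbx2, Tbx4 and Foxf1. Tcf21 was at 0.149% and 0.641% of Prrx1 in the CKO bleomycin cultures of mice 1 and 2, and at 1.47 to 4.81% in the other 6. Foxf1 (9.36 to 43.8%), Tbx5 (6.00 to 19.8%) and Hoxa5 (12.7 to 48.5%) varied less, and Meox2 ran from 1.71 to 19.7%.

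**Figure D4:**
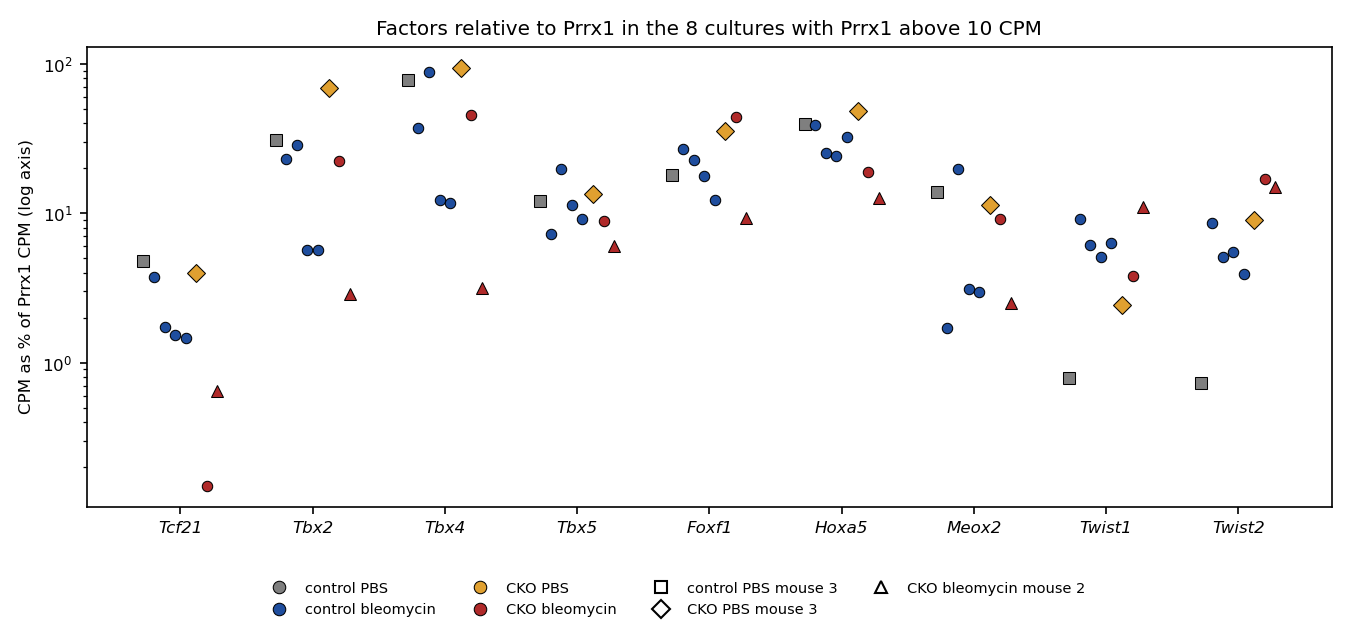
CPM of 9 factors as a percentage of the CPM of Prrx1 (log axis) in the 8 libraries with Prrx1 above 10 CPM, 1 symbol a mouse and the same order of mice within each gene. Control PBS mouse 3 (square) is the lowest point for Twist1 and Twist2, and CKO bleomycin mouse 2 (triangle) is the lowest for Tbx2, Tbx4, Tbx5, Foxf1 and Hoxa5 and the highest for Twist1.

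After PBS, where the question is what the knockout alone does, 9 of 10 factors had a lower fitted level in CKO than in control mice and Twist2 a higher one (median log2 fold change -1.80). No factor had groups without overlap, and 0.202% of all genes were lower without overlap. None of the factors was lower at an unadjusted p under 0.05, beside 0.654% of all genes, and edgeR called 0 (adjusted p = 1.00 for each, 0% of all genes called). The difference rested on control PBS mouse 3: without it the median was 1.68. CKO PBS mouse 3 (fibroblast score 5.47) was the highest of its group for all 10 factors, with 14.8 CPM of Tbx4, 15.8 CPM of Prrx1, 7.65 CPM of Hoxa5 and 1.42 CPM of Twist2. The other 4 CKO PBS cultures had at most 0.893 CPM of Tbx4, 2.38 CPM of Prrx1, 0.782 CPM of Hoxa5 and 0.347 CPM of Twist2.

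In CKO mice the fitted differences between bleomycin and PBS cultures had both signs, with 7 of 10 positive. Twist1 had means of 1.20 CPM after bleomycin and 0.124 CPM after PBS, and Twist2 of 1.99 and 0.386 CPM. Bleomycin mouse 2 set the means after bleomycin, with 4.02 CPM of Twist1 and 5.52 CPM of Twist2. The medians were 0.393 CPM after bleomycin and 0.0733 CPM after PBS for Twist1, and 1.22 and 0.0733 CPM for Twist2. The log2 fold changes of Twist1 and Twist2, 3.26 ± 1.57 and 2.39 ± 1.30, were the highest of the 10. All 10 had a median of 0.22 and a range from -1.08 to 3.26. Groups overlapped for all 10, beside 0.101% of all genes higher without overlap and 0.385% higher at an unadjusted p under 0.05, and edgeR called 0 factors and 0% of all genes. The interaction of genotype and bleomycin was negative for all 10 factors (median -1.61, range -2.02 to -0.32). None passed an unadjusted p of 0.05, beside 1.59% of all genes that were lower at that level, and edgeR called 0 (adjusted p from 0.916 to 0.991, 0% of all genes called).

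Per kilobase of exon, the scale on which genes can be ranked, Hoxa5 led in control bleomycin cultures with 10.8 ± 4.32 CPM per kb (SD, n = 4). Tbx4 followed with 6.46 ± 5.10, Prrx1 with 5.89 ± 1.18 and Foxf1 with 5.33 ± 2.03. Twist1 and Tbx2 came next with 2.73 ± 1.12 and 2.70 ± 1.91. The lowest were Meox2 with 1.61 ± 1.70, Tbx5 with 1.55 ± 0.403, Twist2 with 1.20 ± 0.554 and Tcf21 with 0.603 ± 0.388 CPM per kb. The order between neighbors held in all 4 libraries only for Foxf1 above Twist1 and Twist2 above Tcf21, and the other neighbors changed places between mice. In control PBS cultures the Twist genes had the lowest means, 0.0916 ± 0.134 for Twist1 and 0.0604 ± 0.0560 CPM per kb for Twist2, but mouse 3 set the means of the others, and Tcf21 was above Twist1 in only 2 of 4 libraries. In CKO bleomycin cultures the means were 0.737 ± 1.16 for Twist1, 0.626 ± 0.793 for Twist2 and 0.595 ± 0.700 CPM per kb for Tbx4. Mouse 2 set this order, since Twist2 was above Tbx4 in 1 of 4 libraries.

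Across the 17 libraries all pairs of factors were correlated. The Pearson correlation of log2 CPM is given as a description, since fibroblast marker levels varied widely across these libraries. It ran from 0.66 for Tcf21 and Twist2 to 0.96 for Foxf1 and Hoxa5. It was also 0.96 for Tbx2 and Tbx4 and for Twist1 and Twist2, 0.95 for Hoxa5 with Tbx5 and with Prrx1, and 0.74 for Tbx2 and Twist1. Among the 10481 genes above the stricter minimum, the gene most like Tbx2 was Tbx4 and the gene most like Tbx4 was Tbx2. Twist1 and Twist2 were both most like Serpinf1 (r = 0.97 and 0.94), the gene of an extracellular protein in the fibroblast marker list, and Pdgfrb was also among the 3 genes most like Twist1 (r = 0.96), a receptor of pericytes and fibroblasts. Foxf1 was most like Antxr1, Col5a1 and Piezo2 (r = 0.98), Prrx1 most like Mark1, Pde1a and Bgn (r = 0.98), and Hoxa5 most like Bnc2, Fbn1 and Tshz3 (r from 0.97 to 0.98). Tbx5 and Meox2 shared Itga8 (r = 0.97 and 0.95) among their closest genes.

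Noncoding neighbors were low. Fendrr, a lncRNA that starts 1276 bases from Foxf1 on the opposite strand, was measured at 0.543 to 1.57 CPM in control bleomycin cultures, at 0.0706 to 0.412 CPM in CKO bleomycin cultures and at 1.09 and 1.07 CPM in mouse 3 of the 2 PBS groups. Gm43050, a lincRNA 748 bases from Tbx5 on the opposite strand, was measured at 0.670 to 1.43 CPM in control bleomycin and at 0 to 0.160 CPM in CKO bleomycin cultures. For both lncRNAs every CKO bleomycin culture was below every control bleomycin culture. Beside this, 11.3% of the genes above the lower minimum were lower without overlap. Neither lncRNA passed that minimum, so neither was tested. Counts in CKO bleomycin mice 1 to 4 were 45, 34, 15 and 6 for Fendrr and 10, 17, 0 and 0 for Gm43050. Gm29100, antisense to Twist2, was at most 0.329 CPM in any library, Gm37644 lies inside Prrx1 on the same strand so that their reads cannot be told apart, and Gm29007 beside Meox2 had no count in any library. Dnm3os, a mesenchymal noncoding RNA that hosts microRNAs, was measured at 25.4 CPM in control PBS mouse 3 and at 0 to 1.47 CPM in the other control PBS mice, against 8.90 to 17.2 CPM after bleomycin, the course of the 8 factors other than the Twist genes.

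The remaining genes of this biology were read as lists. Of 28 related mesenchymal factors, 23 were tested, and 20 had a higher fitted level after bleomycin in control mice (median log2 fold change 1.5) while all 23 were lower in CKO than in control bleomycin mice (median -1.55). edgeR called 0 in each comparison. At an unadjusted p under 0.05, 5 of the 23 were higher in the first, beside 5.89% of all genes, and 9 were lower in the second, beside 8.59%. Tcf3, a partner of the Twist proteins, had log2 fold changes of 0.80 ± 0.26 and -0.86 ± 0.26 (adjusted p = 0.333 and 0.237). Meis1, a homeodomain cofactor of Hox proteins, had a log2 fold change of -2.14 ± 0.76 between the genotypes after bleomycin (adjusted p = 0.250).

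Tbx18, a T-box factor of pericytes and mesothelium, had values like those of the Twist genes. It was measured at 0.254, 0, 0.257 and 0 CPM in control PBS and at 8.42, 3.89, 5.82 and 5.86 CPM in control bleomycin cultures, and at 0.878, 13.6, 0.344 and 0 CPM in CKO bleomycin cultures. The control groups did not overlap, control PBS mouse 3 was as low as mouse 1, and CKO bleomycin mouse 2 had the highest level of all 17. Its log2 fold change was 5.57 ± 2.07 after bleomycin in control mice (edgeR adjusted p = 0.345) and -0.70 ± 1.69 between the genotypes (adjusted p = 0.831).

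Of the 20 other genes of the Hoxa and Hoxb clusters, 12 were tested, all 12 were higher after bleomycin in control mice (median log2 fold change 1.85) and all 12 were lower in CKO bleomycin mice (median -2.81). In 11 of the 12 every CKO bleomycin culture was below every control bleomycin culture, beside 11.3% of all genes. Hoxa4 and Hoxa7, neighbors of Hoxa5 in the cluster, had log2 fold changes of -3.54 ± 1.66 and -2.76 ± 1.29 (adjusted p = 0.277 and 0.276) between the genotypes after bleomycin.

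Of 4 other factors of epithelial-to-mesenchymal transition, 3 were higher after bleomycin in controls and 3 were lower in CKO bleomycin mice (medians 1.085 and -1.65). Snai2 had a log2 fold change of 2.44 ± 1.60 after bleomycin (edgeR adjusted p = 0.503) and Zeb1 of -1.82 ± 0.79 between the genotypes (adjusted p = 0.260). Zeb2 went the other way in both, with values of -0.30 ± 0.34 and 0.46 ± 0.34. Of 13 signals and receptors of lung mesenchyme, 12 were tested, 9 were higher after bleomycin in controls and 11 were lower in CKO bleomycin mice (medians 1.31 and -1.75). Wnt2 and Wnt5a, ligands made by lung mesenchyme, had log2 fold changes of -6.64 ± 2.27 and -3.38 ± 1.15 between the genotypes (adjusted p = 0.242 for each), and Wnt2 was at most 0.150 CPM in the CKO bleomycin cultures. Fgf10, the ligand downstream of Tbx4 and Tbx5, was the 1 gene of the list with a positive value there (0.62 ± 1.5, adjusted p = 0.831). It reached 8.30 CPM in a CKO bleomycin culture, against at most 5.16 CPM in control bleomycin cultures. edgeR called 0 genes of these lists.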

How the data were processed

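Total RNA was sequenced from 17 cultures labelled as lung fibroblasts at passage 1. The deposited values are raw read counts per gene, which the authors made from paired-end stranded reads; per the labels, cutadapt 1.18, HISAT2 2.1.0, StringTie and the build GRCm38 were used. Totals were 66540022 to 120554468 counts per library, with 1 mouse a library. Gene positions came from GENCODE M21, and 55154 of 55421 gene IDs matched it. CPM used TMM-scaled library sizes, and log2 CPM a prior count of 2.

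The 4 groups were fitted together without a batch term in edgeR 4.0.16 (quasi-likelihood test, R 4.3.3), with Benjamini-Hochberg adjustment over all genes and a threshold of 0.05. The study itself tested with DESeq2 and a batch number as covariate, so these edgeR fits do not repeat its test. As in the study, genes had to exceed 10 CPM in 2 or more libraries (10481 genes). For this filter and the lower filter below, CPM were taken on plain library totals, without TMM factors. Foxf1, Hoxa5, Meox2, Prrx1, Tbx2 and Tbx4 passed. Tbx5, Tcf21, Twist1 and Twist2 did not, and their values, those of the lists and the shares of all genes come from a fit of the 14821 genes that exceeded 1 CPM in 4 or more libraries. The script was tested on simulated counts with 200 of 10481 genes changed by 3 log2 units between CKO and control bleomycin groups. At the dispersion of these data 79.5% were called. The genes were drawn independently over all 10481, so this share does not tell how often the 10 factors would be called.

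Alternatives were DESeq2 1.42.0, limma 3.58.1 (voom), RLE scaling, other filters, covariates and leaving out libraries; fits that left out libraries kept the genes of the full fit. The labels give sequencing in 2 parts of 8 and 9 libraries but not which library was in which; the table's columns stand in 2 sorted runs of 8 and 9, used as a covariate. The named genes were the 10 factors, 4 gene lists (the 2 genes of each with the smallest p in each direction), genes that start within 5000 bases of a factor, Dnm3os, and the 3 genes most correlated with each factor of mean above 1 CPM; Tbx18 beyond its value after bleomycin, Fgf10 and the ratios to Prrx1 were chosen after values had been seen. One result that the rule would name is not reported here. The factors and lists were chosen with earlier results of these data known.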

Additional observations from a re-analysis of the deposited data

Results flagged for a closer look

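Of 40 combinations of factor and group, 1 had a library far from the others by Dixon's criterion on log2 CPM, and chance alone flags about 1 in 20. Tcf21 was measured at 0.624 CPM in CKO PBS mouse 3, against 0 to 0.0248 CPM in the other 4 mice of that group, and this gap took up 0.773 of the whole range of the group. The same mouse had the highest fibroblast score of its group, 5.47. No difference of an effect between the genotypes passed the threshold.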

How the results depend on the processing

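The count of factors called stayed at 0 in every edgeR fit, including each fit without 1 library. It became 1 with DESeq2 and the column runs as a covariate for bleomycin versus PBS in control mice (2.08% of all genes called), and 6 with limma voom and sample quality weights for CKO versus control after bleomycin (40.0%). DESeq2 without a batch term gave Tcf21 no adjusted p.

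Directions turned mainly with the fibroblast score as a covariate. For bleomycin versus PBS in control mice the log2 fold changes were then -0.87 for Tcf21, -1.70 for Tbx2, -1.26 for Tbx4, -0.48 for Tbx5, -0.0057 for Foxf1, -0.068 for Twist2, -0.75 for Prrx1, -0.72 for Hoxa5 and -1.73 for Meox2 (median of all 10 -0.74). For CKO versus control after bleomycin they were 0.55 for Tbx2, 1.29 for Tbx4, 0.35 for Tbx5, 0.12 for Foxf1, 1.54 for Twist1, 1.70 for Twist2, 1.26 for Prrx1, 0.050 for Hoxa5 and 1.39 for Meox2 (median 0.91), and the interaction had a median of 1.31. The cause was not tested. Without the 3 libraries whose sex-linked genes went against the label, Meox2 had -0.22 for bleomycin versus PBS in control mice, and bleomycin versus PBS in CKO mice had a median of -1.42.

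Leaving out 1 library moved Meox2 in control mice from -0.21 (without control bleomycin mouse 2) to 6.63 (without control PBS mouse 3). The median over the factors then ran from -3.79 to 1.68 for CKO versus control after PBS, from -0.13 to 2.72 for bleomycin versus PBS in CKO mice and from -4.88 to 0.79 for the interaction. The highest of these were without control PBS mouse 3 for the first and without CKO PBS mouse 3 for the other 2, and the lowest for the interaction was without control PBS mouse 3. For the 2 bleomycin comparisons of the report it ran from 1.38 to 5.04 and from -3.44 to -2.55. Within each run of columns all 10 factors were higher after bleomycin in control mice (2 against 2 mice; median difference of mean log2 CPM 3.38 and 4.65) and lower in CKO bleomycin mice (medians -5.23 and -1.85). Mouse names begin with a number series, and series 12 held all 4 control bleomycin mice but 1 of 4 control PBS mice. Within it the 10 factors were also higher after bleomycin (4 against 1 mice) and lower in CKO mice (2 against 4; median -1.89). All 40 group means of CPM stayed within 1 SD under RLE scaling and under plain totals. This margin was wide, since the SD was above the mean in several groups. The control PBS mean of Tbx4 was 12.2 CPM (SD 22.8) and became 15.2 CPM under plain totals. No paired analysis was possible because the replicate numbers only name mice and mark no pairs. At this spread between mice, differences of several fold did not reach the threshold, and values under 0.1 CPM rest on few counts.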
